A study of Mus musculus with 468 samples.

Results

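The genes described here are 9 transcripts used to recognise resident macrophages of tissues, Lyve1, Timd4, Mrc1, Cd163, F13a1, Folr2, Mgl2, Clec10a and Pf4, chosen by their symbols from 23180 genes measured in adipose tissue. All 9 were found, and all 9 were among the 18380 genes with 10 or more counts in 50% or more of the libraries, to which tests were confined. The tissue came from Diversity Outbred mice, which descend from crosses among inbred founder strains and are each genetically distinct, and every mouse gave 1 RNA sequencing library. All mice were fed a high-fat, high-sugar diet (45 percent fat per the labels), there were no mice on another diet, and the labels give no sex, age or generation, so the libraries formed 1 group. Per the methods of the study the tissue was the gonadal fat pad. The comparisons therefore ask how the 9 genes varied together among mice, and how they moved with Adgre1, which encodes the general macrophage marker F4/80, and with Trem2 and Itgax, which mark lipid-associated macrophages.

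Macrophages that live in healthy adipose tissue lie along vessels and between adipocytes, where they take up dying cells, iron carriers and matrix fragments through scavenger receptors and lectins. In obese mice a further population collects around dying adipocytes, carries the integrin CD11c encoded by Itgax, and handles lipid with the help of the receptor TREM2. Whole tissue RNA holds both populations, and in such data fewer cells of a type and less RNA per cell cannot be told apart.

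Total expected counts ranged from 35298813 to 137760410 per library (median 82043357). The 6 adipocyte markers together gave 8459 to 34356 CPM (counts relative to the library total, scaled with edgeR's TMM factors), and the 8 pan-macrophage markers gave 127 to 2159 CPM. Genes of the Y chromosome had counts in 51.5% of the libraries and none in the other 48.5%, and relations were also computed within each of these clusters. The sizes of the clusters with and without such counts equal the numbers of male and female adipose samples that the study gives. The clusters were therefore read as males and females, though no label gives the sex of a mouse. The genes used as covariates below differed in level between the clusters: the median was 62.4 CPM with and 38.1 CPM without Y chromosome counts for Adgre1, 35.7 and 11.95 CPM for Trem2, and 31.3 and 3.26 CPM for Itgax. The 4 Y chromosome genes accordingly rose with Adgre1 (median slope 0.74 on the log2 scale per doubling) and with Itgax at equal Adgre1 (median 1.14), so each relation over all libraries also carries the difference between the clusters. Mouse DO21 stood apart: it had the highest Adgre1 level of all libraries at 656.5 CPM, 2.83 log2 units above the line of Adgre1 on the mean of the 8 pan-macrophage genes, whereas the next library lay 0.95 away. Mouse DO283 was the shallowest library (35298813 counts) and had the lowest Mrc1, Cd163, F13a1, Mgl2 and Clec10a of all mice. Tests and correlations were repeated without each of these mice.

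The promoters of 4 members are shown because these genes lay at both ends of the co-variation described below: Mrc1 and Pf4 followed each other and Adgre1 closely, and Cd163 and Timd4 hardly followed Adgre1 over all libraries. The sequences are from RefSeq on GRCm38.p6, 5′ to 3′ on the strand of the gene, and end at or just before the annotated gene start. They lie at chr2:14229164-14229391 (Mrc1), chr5:90772185-90772434 (Pf4), chr6:124304401-124304650 (Cd163) and chr11:46810549-46810798 (Timd4), all on the plus strand. Capitals mark GAGGAA, the core bound by the myeloid factor PU.1, on either strand, where it reads TTCCTC on the opposite strand.
Mrc1: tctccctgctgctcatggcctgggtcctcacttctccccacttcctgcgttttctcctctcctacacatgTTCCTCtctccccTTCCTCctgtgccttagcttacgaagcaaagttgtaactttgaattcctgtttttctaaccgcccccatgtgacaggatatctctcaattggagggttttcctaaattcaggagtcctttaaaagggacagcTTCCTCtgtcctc
Pf4: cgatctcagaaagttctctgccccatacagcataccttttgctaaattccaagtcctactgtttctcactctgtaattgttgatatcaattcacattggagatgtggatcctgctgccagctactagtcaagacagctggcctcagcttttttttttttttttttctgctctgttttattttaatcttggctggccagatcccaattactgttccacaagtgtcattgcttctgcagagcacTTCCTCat
Cd163: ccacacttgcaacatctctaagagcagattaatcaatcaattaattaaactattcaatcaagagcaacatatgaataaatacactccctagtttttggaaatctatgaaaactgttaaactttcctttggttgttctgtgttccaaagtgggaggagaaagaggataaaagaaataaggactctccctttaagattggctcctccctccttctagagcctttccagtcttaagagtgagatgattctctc
Timd4: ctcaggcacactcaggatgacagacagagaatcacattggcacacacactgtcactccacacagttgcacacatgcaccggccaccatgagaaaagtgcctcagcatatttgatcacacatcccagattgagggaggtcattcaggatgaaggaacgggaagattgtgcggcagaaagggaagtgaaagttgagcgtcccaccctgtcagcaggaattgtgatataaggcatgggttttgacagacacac
The Mrc1 window held 3 matches and the Pf4 window 1, and none was in the windows of Cd163 and Timd4. RefSeq listed 9 promoters for 7 of the members, with Lyve1 and Clec10a not among them, and 4 of the 9 held the motif (F13a1, Mgl2, Mrc1 and Pf4). Of all 32851 promoters in the table, 23.3% held it. Among the members listed the motif did not sort by the slope on Adgre1 over all libraries. Neither Folr2 promoter held the motif, though Folr2 had the steepest slope (0.53), and Mgl2 held it without a rise (-0.055). TGCTGA, a core recognised by MAF factors, was in 3 of the 9, both Folr2 promoters and that of Timd4, and in 16.1% of all promoters on either strand. A match of this kind is a description of the sequence and was not tested as a binding site.

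Among the receptors that take up cargo, Mrc1, the mannose receptor (ENSMUSG00000026712, chromosome 2, 14229392 to 14332057 on GRCm38, overlapping the microRNA gene Mir511), had the highest mean of the 9 genes. Its level lay between 42.4 and 706 CPM (median 163.2, mean 178.3 ± 70.1, SD over all mice). Cd163, the receptor for haemoglobin bound to haptoglobin (ENSMUSG00000008845, chromosome 6, 124304656 to 124330527), lay between 38.97 and 361.8 CPM (median 143.5). Both genes were thus detected at high counts in every mouse, down to 1399 counts for Mrc1 and 1285 for Cd163 in mouse DO283.

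Lyve1, a hyaluronan receptor carried by perivascular macrophages and by lymphatic endothelium (ENSMUSG00000030787, chromosome 7, 110850607 to 110863239), ranged from 6.75 to 90.3 CPM around a median of 35.9. Timd4, a phosphatidylserine receptor for dying cells that marks long-lived resident macrophages (ENSMUSG00000055546, chromosome 11, 46810800 to 46844332), was the member with the lowest level, between 1.33 and 18.7 CPM (median 5.76). Folr2, a folate receptor (ENSMUSG00000032725, chromosome 7, 101839988 to 101857194), lay between 2.00 and 115.8 CPM (median 21.5). Folr2 was the most variable of the 9, with an SD of 0.88 on the log2 CPM scale, a wider spread than 77.6% of all genes. An antisense gene and a processed pseudogene (Gm10602 and Gm45319) overlap Folr2, and whether counting used the strand is not given in the sources used here, so its counts may hold reads of those genes.

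The lectins Clec10a and Mgl2, which bind galactose and N-acetylgalactosamine, lie 18646 bases apart on chromosome 11 (Mgl2 at 70130329 to 70137550 and Clec10a at 70156197 to 70170834) with no protein-coding gene between them. Clec10a ranged from 8.96 to 265.5 CPM (median 37.7) and Mgl2 from 9.69 to 80.2 CPM (median 30.8). The counts of these genes were never whole numbers in any library, while their sum was whole within 0.001 in 91.03% of the libraries, so reads that match both were divided between them and the level of each alone is uncertain. The other 7 members had whole counts in every library, whereas those of Itgax were whole in 22 libraries, so some of its reads were divided with other genes.

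The secreted products were F13a1 and Pf4. F13a1, the catalytic subunit of coagulation factor XIII (chromosome 13, 36867178 to 37050244, overlapped by the antisense genes Gm49144 and Gm30489), lay between 35.8 and 334.2 CPM (median 155.3). Pf4, a chemokine named for its storage in platelets that macrophages also make (chromosome 5, 90772435 to 90773383), lay between 4.99 and 41.7 CPM (median 14.9). The lowest Pf4 of all mice was that of mouse DO21, the library with the highest Adgre1.

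**Figure D1:**
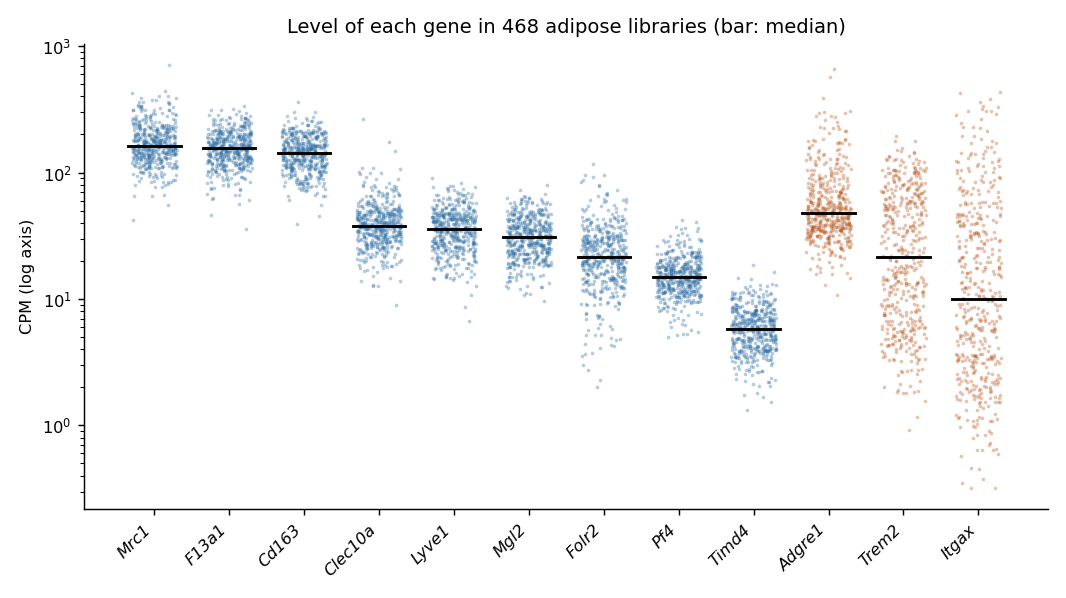
CPM on a log axis for each gene in all libraries, 1 point per mouse, with the median as a bar; the 9 resident macrophage genes are blue and Adgre1, Trem2 and Itgax are orange. The resident genes form compact columns, while Trem2 (0.913 to 193.3 CPM) and Itgax (0.318 to 434.01 CPM) spread over far wider ranges.

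Per kilobase of exon, the median levels fell in the order Cd163 (26.3 CPM per kb), Mrc1 (25.6), F13a1 (23.1), Pf4 (20.7), Mgl2 (14.7), Folr2 (13.9), Clec10a (12.99), Lyve1 (12.3) and Timd4 (2.65). The ranges from the 10th to the 90th percentile of mice overlapped between all neighbours in this order apart from Lyve1 and Timd4. Cd163 was above Mrc1 in 52.8% of libraries, and Clec10a was above Lyve1 in 55.3%, so these neighbours had no fixed order. Lyve1 was above Timd4 in all libraries but 1.

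The contrast genes varied more than the resident genes. The SD of log2 CPM was 0.90 for Adgre1, 1.73 for Trem2 and 2.32 for Itgax, against 0.47 to 0.88 for the 9 members and a median of 0.46 over the genes past the filter. From the 10th to the 90th percentile of mice, F13a1 differed 2.24-fold and Folr2 4.03-fold, whereas Trem2 differed 22.9-fold and Itgax 65.7-fold. Mouse DO88 had the highest level of Mrc1 (706 CPM), Folr2 (115.8 CPM), Clec10a (265.5 CPM) and Trem2 (193.3 CPM) together, but its Lyve1 (35.6 CPM) and Cd163 (153.4 CPM) were near the middle of the range and its Mgl2 (21.2 CPM) ranked 86th from the lowest.

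The resident genes were positively correlated across mice, but in unequal degree. Of the 36 pairs of members, all had a positive Pearson's r of log2 CPM, with a median of 0.36 (0.013 to 0.81), and 12 pairs were above 0.5. Spearman's rho had a median of 0.35 (0.022 to 0.80). In 31 pairs a two-sided permutation test of 100000 resamples gave p = 1e-05, the smallest it can give, which is 1.73e-05 after Benjamini-Hochberg adjustment over all relations computed. Leaving out the 2 libraries farthest from the median changed r by at most 0.035 in any pair.

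The highest correlations joined Mrc1, Pf4, F13a1 and Clec10a. Mrc1 had r = 0.81 with Pf4, 0.77 with F13a1 and 0.77 with Clec10a, and it was the closest of all 18379 other genes to Pf4, F13a1, Clec10a and Folr2. Within blocks of consecutive mouse numbers or library numbers, 5 of each, the median r of the 36 pairs lay between 0.30 and 0.46. In 7 of the 10 blocks all pairs were positive, and in the others 32 to 34 were. The r of Mrc1 and Pf4 stayed between 0.79 and 0.84, whereas that of Lyve1 and Clec10a ran from -0.027 to 0.28 and that of Timd4 and Mgl2 from -0.081 to 0.47. Without mouse DO283, 35 of the 36 pairs were positive over all other libraries. Lyve1, Timd4 and Cd163 were joined less tightly, with r = 0.50 for Lyve1 and Timd4, 0.48 for Lyve1 and Cd163 and 0.38 for Timd4 and Cd163, and Lyve1 was the gene closest to Timd4 of all. F13a1 was as close to these genes as they were to each other, at r = 0.52 with Lyve1, 0.49 with Cd163 and 0.44 with Timd4. Mgl2 was the least connected member: its r ran from 0.013 with Folr2 (p = 0.786 by permutation, adjusted 0.816) to 0.36 with F13a1, and with its neighbour Clec10a it was 0.24.

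**Figure D2:**
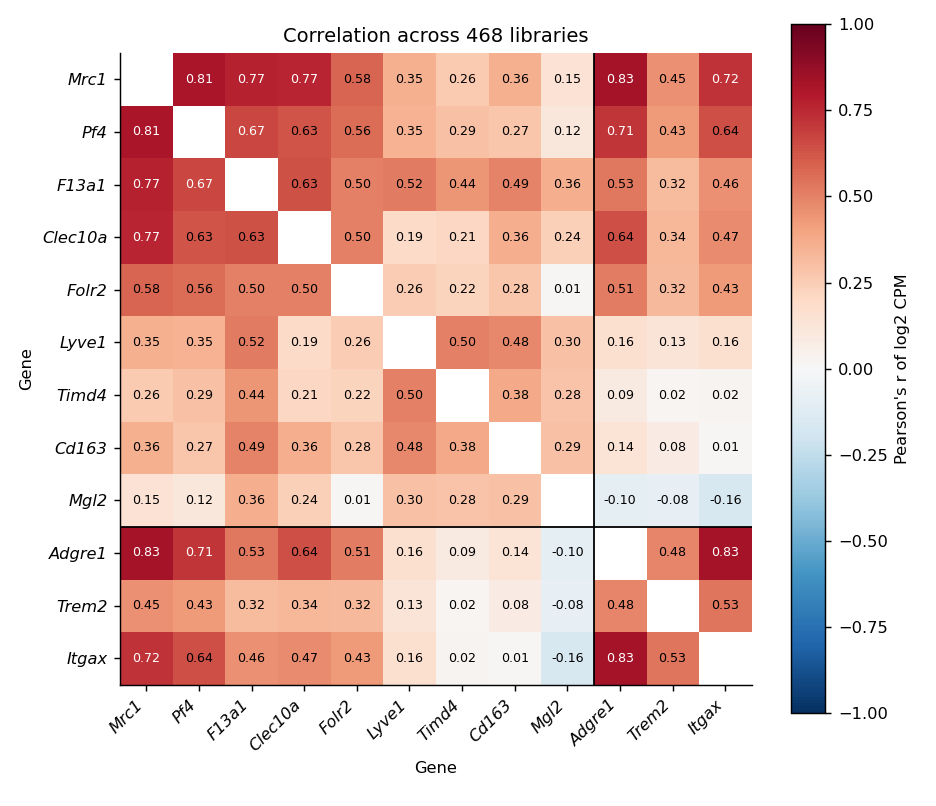
Pearson's r of log2 CPM across all libraries for the 9 members and the 3 contrast genes, coloured from -1 (blue) to 1 (red), with the lines setting off the contrast genes. Mrc1, Pf4, F13a1, Clec10a and Folr2 share r of 0.50 to 0.81, and Mgl2 has r near 0 or below with Adgre1, Trem2 and Itgax.

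These relations differed in size between the clusters of libraries. In the libraries with Y chromosome counts the median r of the pairs was 0.27 and 33 of the 36 pairs were positive, and in those without them the median was 0.52 and all 36 were positive. Timd4 and Mrc1, for example, had r = -0.0021 in the first and 0.61 in the second, while Lyve1 and Timd4 had 0.50 and 0.52. The difference between the clusters was not tested. At equal Adgre1 (partial correlation over all libraries) all 36 pairs remained positive, with a median of 0.34 (0.073 to 0.70).

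Over all libraries, some members followed Adgre1 and others did so weakly or not at all. In an edgeR quasi-likelihood fit over 18374 genes, 8 of the 9 members rose with Adgre1, where 34.4% of all genes rose and 43% fell. The median slope of the 9 was 0.29 on the log2 scale per doubling of Adgre1, and the median over all genes tested was -0.017. Folr2 had the steepest slope among members at 0.53 ± 0.034 (SE; adjusted p = 2.93e-44), a rise of 1.44-fold per doubling. Mrc1 followed with 0.49 ± 0.014, Clec10a with 0.44 ± 0.021, Pf4 with 0.41 ± 0.017 and F13a1 with 0.29 ± 0.021 (adjusted p = 6.01e-35 or smaller). Lyve1 (0.10 ± 0.030, adjusted p = 0.0012), Timd4 (0.094 ± 0.033, adjusted p = 0.00725) and Cd163 (0.064 ± 0.025, adjusted p = 0.0147) rose only slightly. Mgl2 had a slope of -0.055 with a 95% interval of -0.11 to 0.0043 and did not pass the test (adjusted p = 0.0873).

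A straight line on Adgre1 accounted for 69.003% of the variance of log2 CPM of Mrc1, 50.8% of that of Pf4 and 41.5% of that of Clec10a. The share was 27.9% for F13a1 and 26.3% for Folr2, and 0.838% to 2.52% for Lyve1, Timd4, Cd163 and Mgl2. Folr2 had the steepest slope but also the widest spread around its line, with an SD of 0.75 against 0.29 for Mrc1. When the expected counts of Clec10a and Mgl2 were added, which leaves out the division of reads between these 2 genes, the sum had a slope of 0.25 ± 0.021, between those of the separate genes. Without mouse DO21 the same 8 members passed, with slopes from 0.072 to 0.54.

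**Figure D3:**
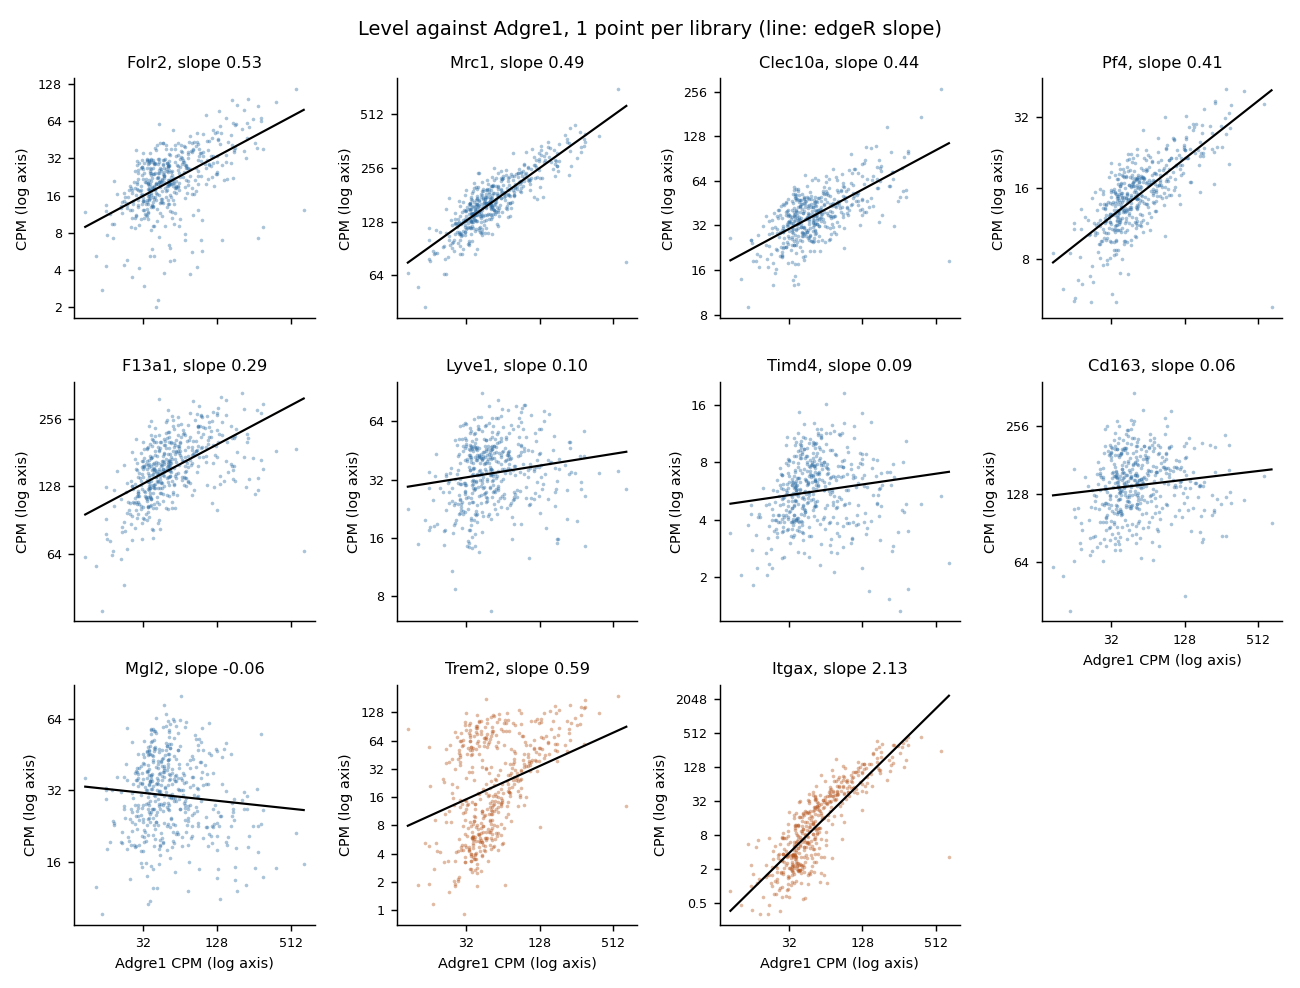
CPM of each gene against CPM of Adgre1, both on log axes, 1 point per library, with a line through the means that has the edgeR slope given above each panel. Mrc1 lies tightly along its line and Timd4, Cd163 and Mgl2 form round clouds. Trem2 is split into an upper and a lower band over the same range of Adgre1, and the point far to the right and low in most panels is mouse DO21.

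Within the clusters of libraries the members were not split in the same way. In the libraries with Y chromosome counts, 5 members rose with Adgre1 (29.7% of all genes did and 43.7% fell), with slopes of 0.29 for F13a1 to 0.60 for Folr2. The slopes of Lyve1 (-0.012), Timd4 (-0.033), Cd163 (0.034) and Mgl2 (-0.0090) did not pass the test there, with adjusted p of 0.335 to 0.844. In the libraries without Y chromosome counts all 9 members rose, where 31.7% of all genes did. Their slopes were 0.38 ± 0.063 for Timd4, 0.25 ± 0.053 for Cd163, 0.22 ± 0.056 for Mgl2 and 0.21 ± 0.066 for Lyve1, beside 0.41 to 0.57 for the other 5. The intervals of Timd4 (0.26 to 0.51) and F13a1 (0.33 to 0.50) overlapped there, and Timd4 (r = 0.34) and Cd163 (0.32) were correlated with Adgre1 about as closely as Folr2 (0.35). For Mgl2 the slope over all libraries therefore had the opposite sign to that within this cluster. The difference of the slopes between the clusters was not tested.

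**Figure D4:**
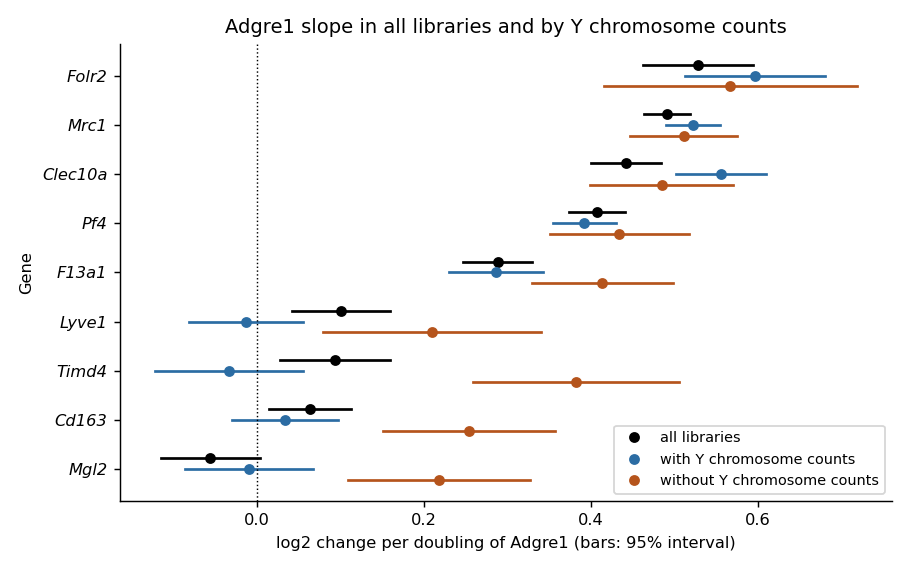
Slope of each member against Adgre1 (log2 change per doubling of Adgre1, with 95% intervals) in all libraries, in those with Y chromosome counts and in those without. Folr2, Mrc1, Clec10a and Pf4 have slopes from 0.39 to 0.60 in each set, while the 4 lower genes lie near 0 in the libraries with Y chromosome counts and between 0.21 and 0.38 in those without.

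Itgax had a steeper slope than any member, and the place of Trem2 depended on the model. By edgeR, which fits the mean of the counts, Itgax rose by 2.13 ± 0.059 and Trem2 by 0.59 ± 0.068 per doubling of Adgre1 on the log2 scale, and the interval of Trem2 (0.46 to 0.72) overlapped that of Folr2 (0.46 to 0.59). A straight line through log2 CPM gave nearly the same slopes for the members (-0.059 to 0.50) and Itgax (2.15) but 0.93 for Trem2. In limma fits of log2 ratios, which rest on the log2 CPM scale, the slope of every member was below that of Trem2, by 0.43 (Folr2) to 0.99 (Mgl2), and below that of Itgax, by 1.65 (Folr2) to 2.20 (Mgl2). All 9 differences passed the test, but so did those of 98% of all genes against Trem2 and of 99.9% against Itgax (0.577% and 0.0435% had steeper slopes), so a slope below theirs was not particular to the members. The difference from Trem2 was not tested on the count scale.

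In the libraries without Y chromosome counts, 0 of 9 differences from Trem2 passed (-0.31 to -0.023, limma adjusted p of 0.088 to 0.904), where 69.6% of all genes did. The slope of Trem2 there was 0.48 by a straight line through log2 CPM, above all members, but 0.23 by edgeR (95% interval -0.067 to 0.54), below 7 of the 9 members. The order of Trem2 and the members in these libraries was therefore not settled in direction.

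With Adgre1 in the model, none of the 9 members had a Trem2 coefficient that passed the test (14.1% of all genes were higher and 14.1% lower), and the coefficients ran from -0.017 (Timd4) to 0.038 (Folr2) on the log2 scale per doubling of Trem2. The smallest adjusted p by edgeR was 0.103, for Pf4, at 0.022 with a 95% interval of 0.0014 to 0.042, and its unadjusted p was 0.0363, the only one of the 9 under 0.05. Pf4 passed in limma fits at 0.031 (log2 CPM) and 0.029 (deposited VST values), whereas no member passed with DESeq2.

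Trem2 followed the other lipid-associated genes less closely than Itgax did. The r of Trem2 with the mean log2 CPM of 15 other genes of those cells was 0.54, while Itgax had r = 0.96 with the same mean. The gene closest to Trem2 was Treml1, 5768 bases away on chromosome 17 with no protein-coding gene between them, at r = 0.73 over all libraries, 0.76 with and 0.79 without Y chromosome counts. Treml1, which encodes a receptor of platelets, had a mean of 2.20 CPM and r of -0.026 to 0.083 with the 9 members. The bands of Trem2 seen against Adgre1 were not assigned to mice, and a single coefficient describes such a distribution only in part.

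At equal Adgre1, 4 of the 9 members were lower where Itgax was higher, and 0 were higher. Of all genes, 32.5% were lower and 36.9% higher, so the count of lower members was near the background. The coefficients were -0.080 ± 0.016 for Clec10a (adjusted p = 2.57e-06), -0.077 ± 0.017 for Cd163 (1.44e-05), -0.066 ± 0.020 for Mgl2 (0.00223) and -0.065 ± 0.022 for Timd4 (0.00542), on the log2 scale per doubling of Itgax, all by edgeR. The other 5 had coefficients of -0.025 to 0.014 that did not pass. Itgax and Adgre1 were themselves correlated at r = 0.83.

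The 4 lower members differed in how far this held. Cd163 and Timd4 were lower within both clusters. In libraries with Y chromosome counts their coefficients were -0.13 and -0.15 (17.7% of all genes lower and 21.3% higher). In those without they were -0.054 and -0.071 (27.2% lower and 26.8% higher), near the threshold (edgeR adjusted p = 0.0478 and 0.033). Mrc1 was higher in those without (0.041, edgeR adjusted p = 0.0208). Clec10a (-0.073 and 0.0035) and Mgl2 (-0.019 and 0.022) passed in neither cluster, though Clec10a lay at the threshold in libraries with Y chromosome counts (adjusted p = 0.05 by edgeR). With the pan-macrophage mean in place of Adgre1, 8 of the 9 members were lower with Itgax, from -0.051 (F13a1) to -0.16 (Clec10a), where 30% of all genes were lower and 34.7% higher, and Lyve1 alone did not pass at -0.024. Adgre1 itself was lower in that fit by a like amount (-0.064, adjusted p = 2.79e-06 by edgeR) to Mrc1 (-0.065) and Pf4 (-0.063), so this fall was shared by the general macrophage marker. The 8 pan-macrophage genes that form the mean were all higher with Itgax at equal Adgre1 (median 0.11), where 36.9% of all genes were. The 8 lower members in that fit are therefore lower relative to genes that rise with Itgax.

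The same 4 members fell with the mean of the 15 lipid-associated genes at equal Adgre1, where 33.9% of all genes fell. The coefficients per unit of the mean log2 CPM were -0.24 ± 0.049 for Timd4, -0.23 ± 0.045 for Mgl2, -0.18 ± 0.038 for Cd163 and -0.12 ± 0.038 for Clec10a (edgeR adjusted p = 0.00239 or smaller). Those of Lyve1, Mrc1, F13a1 and Pf4 lay between 0.0093 and 0.019 and that of Folr2 was -0.025, and none of these passed. This list was used after earlier results of these data were known, and it shares most of its variation with Itgax, so it is not a separate line of evidence.

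**Figure D5:**
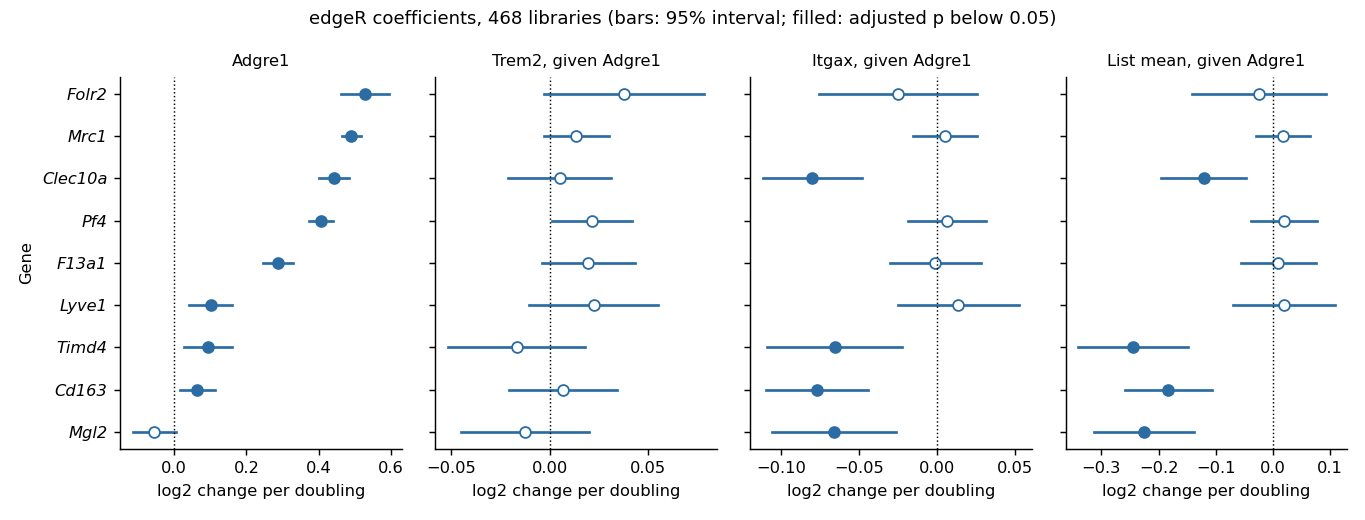
edgeR coefficients of the 9 members in all libraries with 95% intervals: the slope on Adgre1, and the coefficients of Trem2, of Itgax and of the mean of 15 lipid-associated genes, each at equal Adgre1; x axes differ and give log2 change per doubling (per unit of mean log2 CPM in the last). Filled points passed at an adjusted p below 0.05: 8 members rise with Adgre1, none with Trem2, and Clec10a, Timd4, Cd163 and Mgl2 fall with Itgax and with the list.

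The genes nearest to each member by r, among those with a mean of at least 1 CPM and outside the list, placed the members in different company. Mrc1, Clec10a and Pf4 were each closest to Csf1r, the receptor for the macrophage growth factor CSF1 (r = 0.92, 0.73 and 0.81), followed by C1qa, a chain of the first complement component (0.89, 0.71 and 0.80). Folr2 was closest to the same pair, C1qa at 0.58 and Csf1r at 0.58, and then to the scavenger receptor gene Stab1 at 0.57. For Mrc1, Adgre1 ranked only 32nd of all genes.

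F13a1 was closest to the lipoxygenase gene Alox5 (r = 0.70) and then to Fbn1, Fstl1 and Lamc1 (0.70, 0.70 and 0.67), genes of the extracellular matrix. Lyve1 was closest to Alox5 (0.52), Thbs3 (0.52) and Vcan (0.50). Cd163 was closest to Abca9 (0.59), Ms4a4a (0.57), Slc10a6 (0.56) and Tsc22d3 (0.55), the last a gene induced by glucocorticoids. Timd4 was closest to Bank1 (0.49), a scaffold gene of B cells, and to Pml and Ifi47 (0.49 and 0.49), which respond to interferon. Mgl2 was closest to the lectin gene Cd209d (0.48) and to Retnla (0.47), which interleukin 4 induces in macrophages, and both belong to the fixed list of other resident macrophage genes.

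Of the 26 other resident macrophage genes, 18 rose with Adgre1, 2 fell and 6 did not pass, with a median slope of 0.16, where 34.4% of all genes rose and 43% fell. The steepest were Vsig4, a complement receptor (1.00 ± 0.058), and Ccl8 (0.90 ± 0.067), and C1qa (0.53 ± 0.013) and Stab1 (0.40 ± 0.013) were among those near Mrc1. Cd209d (-0.14 ± 0.039) and Fcna (-0.13 ± 0.034) fell. Like Mgl2, the genes Cd209f (-0.027), Ccl24 (-0.068), Slc40a1 (-0.054) and Cd209g (-0.095) did not pass. At equal Adgre1, 11 of the 26 were lower with Itgax and 5 higher, and 5 were higher and 0 lower with Trem2. The share lower with Itgax and that higher with Trem2 were near those of all genes (32.5% and 14.1%). The mean of these 26 genes had r = 0.82 with Mrc1, 0.80 with F13a1 and 0.25 with Mgl2.

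Of the 12 genes for growth factors and alternative activation, Il10 and Il13 were under the filter, and 5 of the other 10 rose with Adgre1, beside 34.4% of all genes. Il10ra (0.68 ± 0.014), Csf1r (0.54 ± 0.011) and Il13ra1 (0.35 ± 0.017) encode receptors, Csf1 (0.28 ± 0.013) a growth factor, and Stat6 (0.18 ± 0.0088) a signal transducer of interleukin 4. Irf4 fell by 1.00 ± 0.080 on the log2 scale per doubling. Il34 (-0.028), Il4 (0.025), Il4ra (0.020) and Klf4 (-0.013) did not pass. The mean of the list had r = 0.53 with Mrc1, 0.43 with Cd163 and 0.06 with Mgl2.

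Several members are also carried by other cells of the pad, and markers of some of those cells moved with them. Lyve1 had r = 0.35 with the mean of 6 lymphatic endothelial genes (p = 1e-05 by permutation, adjusted 1.73e-05), 0.33 with and 0.25 without Y chromosome counts, while the other 8 members had r of -0.11 to 0.10 with that mean. The 6 genes summed to 27.5 to 317.6 CPM, and of these Mmrn1 was at 0 in at least 1 library. The part of these cells in the Lyve1 level was not tested.

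Timd4 was the member with the highest r for 3 lists: 0.37 with 5 genes of large peritoneal macrophages (36.6 to 303.2 CPM in sum), 0.35 with 6 genes of mesothelium (50.2 to 647.6 CPM) and 0.34 with 5 genes of B cells (1.57 to 135 CPM), none of them at 0 in any library. Each r stayed within 0.24 to 0.45 in both clusters and changed little at equal Adgre1 (0.36, 0.37 and 0.33). Mesothelial genes also had r = 0.28 with Cd163 and 0.26 with Mgl2. With and without Y chromosome counts, r was 0.16 and 0.40 for Cd163 and 0.13 and 0.24 for Mgl2. The part of these cells in the levels of the members was not tested.

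Pf4 had r = 0.20 with the mean of the 6 platelet genes past the filter, Treml1 among them. That r was 0.245 with and 0.037 without Y chromosome counts. All 8 platelet genes summed to 2.41 to 20.5 CPM, with 6 of the 8 at 0 in at least 1 library, Ppbp and Gp9 among them. At equal Adgre1 the r of Pf4 with the platelet mean over all libraries was 0.11. Its r with Csf1r was 0.81 without Adgre1 held equal, so these 2 values are not on the same footing. The part of platelets in the Pf4 level was not tested. Genes of monocytes had r = 0.51 with Mrc1 and 0.36 with F13a1, which were 0.12 and 0.093 at equal Adgre1. Adipocyte genes ran against Mrc1 (r = -0.49) but with Mgl2 (0.22) and Cd163 (0.17). With and without Y chromosome counts, r was -0.57 and -0.20 for Mrc1, 0.18 and 0.14 for Mgl2 and 0.20 and 0.13 for Cd163. At equal Adgre1 the r over all libraries was -0.046 for Mrc1, 0.20 for Mgl2 and 0.31 for Cd163.

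The mouse and library numbers were the only orders that the labels gave. Per 100 mouse numbers, with library number in the edgeR model, Pf4 rose by 0.049 ± 0.015 (adjusted p = 0.00931) and Cd163 fell by 0.037 ± 0.014 (adjusted p = 0.038) on the log2 scale, and the other 7 members did not pass. Of all genes, 11.7% rose and 12% fell, so 1 of 9 in each direction was close to the background. Neither call remained when Xist and the Y chromosome genes were in the model, with 0.024 for Pf4 and -0.035 for Cd163.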

How the data were processed

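Adipose RNA from 468 Diversity Outbred mice was sequenced, 1 library per mouse. The authors aligned reads to a transcriptome joining the founder strains and divided shared reads by expectation maximization (EMASE, run by GBRS). These estimated counts, that is expected counts per gene as deposited, were whole within 1e-06 in 66.8% of cases. In a second table the authors deposited the counts after the variance stabilizing transformation (VST) by DESeq2, on a log2 scale, which served as an alternative. The submitters' processing notes name GRCm38. Gene positions were matched to GENCODE M21.

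The 9 members and all gene lists were chosen with earlier results of these data known. Expected counts were rounded for models. Genes with at least 10 counts in at least 50% of libraries were tested with edgeR 4.0.16 (quasi-likelihood, TMM) on log2 CPM of Adgre1, then of Trem2, Itgax or a list mean with Adgre1 in the model. Genes used as covariates were not tested. Benjamini-Hochberg adjustment ran over all genes tested, with a threshold of 0.05. SEs are the estimate over the root of F, and 95% intervals are 1.96 SE. Log2 CPM used a prior count of 2. Slope differences used limma 3.58.1. The 246 correlations used two-sided permutation tests of 100000 resamples over all libraries. Within the 241 libraries with and the 227 without Y chromosome counts, r was computed without a test. The named genes were the members, Adgre1, Trem2, Itgax, the 5 genes of highest r with each member and genes of the lists. Levels between genes were compared per kilobase of merged GENCODE exons. Alternatives were DESeq2 1.42.0, limma, RLE factors, no filter, other covariates and subsets of libraries. The slope test was checked on simulated counts only, with genes drawn independently at a single dispersion. That check does not cover structure between these mice or correlation between genes. The closest pair of libraries had r = 0.970 and 0 pairs were identical. The labels name no separate litters or batches, and p-values measure the spread between these mice taken as independent. The study used sex, generation and wave as covariates and kinship in its mapping. None of these was in the main models here, so the p-values also carry such structure. No sample column was left unused. With 91 or more counts of every member in each library, counting error was small beside the spread between mice, and no interval for it is given.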

Additional observations from a re-analysis of the deposited data

How the results depend on the processing

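Of the member values recomputed under an alternative, 87.04% kept their direction and their side of the threshold or, for median levels, stayed within the SD over mice. Of the rest, 39 changed sign, some of which also crossed the threshold. Among those that kept their sign, 23 no longer passed and 15 came to pass. The fit with the lipid-associated list mean was counted under both Trem2 and Itgax. The share also counts median levels and the slope differences from Trem2 and Itgax. In the main fits 98% and 99.9% of all genes were below Trem2 and Itgax, so such values had little room to change. The share is therefore higher than it would be for the slopes and coefficients alone. Mice DO21 and DO283 were set aside after the data were seen, and neither changed a count of members that passed. No paired analysis was possible because the libraries form 1 group. The cause of the changes below was not tested. Sex, generation and batch are not in the labels, and sex could be read only from the Y chromosome counts. The reads of Clec10a and Mgl2 are divided. These points limit the results.

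For the Adgre1 slope, 1 member was lower with limma on log2 CPM (Mgl2, -0.059), with limma on VST values (Mgl2, -0.057) and without the 10% of libraries with the lowest total count (Mgl2, -0.083), and 5 members were higher in libraries with Y chromosome counts. Mgl2 changed sign with Xist and Y chromosome covariates (0.054) and in libraries without Y chromosome counts (0.22), and Lyve1 (-0.012) and Timd4 (-0.033) did so in libraries with them. Cd163 no longer passed in 3 settings, among them the pan-macrophage mean (0.057, adjusted p = 0.058 by edgeR). Lyve1 and Timd4 each no longer passed in 1 setting besides their change of sign. The slope difference from Trem2 passed for 0 members in libraries without Y chromosome counts. The median r of the pairs was 0.52 in libraries without Y chromosome counts.

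For Trem2 at equal Adgre1, 1 member was higher with limma on either scale. Of all genes 28.2% passed, against 7.61% with the pan-macrophage mean, 2.46% in libraries with Y chromosome counts and 67.8% with the lipid-associated list mean, which made 4 members lower. Sign changes were those of Mrc1 (-0.0062) and Clec10a (-0.0092) with the pan-macrophage mean, Clec10a (-0.0069) with and Mgl2 (0.030) without Y chromosome counts, and Cd163 (-0.18), Folr2 (-0.025) and Clec10a (-0.12) with the list mean.

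For Itgax at equal Adgre1, limma on either scale gave 2 members higher. Xist and Y chromosome covariates gave 1 higher and 2 lower, the pan-macrophage mean 8 lower, libraries with Y chromosome counts 2 lower and those without 1 higher and 2 lower. Of all genes 69.4% passed, against 39.1% in libraries with Y chromosome counts. F13a1 (-0.00083) became positive with limma (0.011 and, on VST values, 0.0087), Xist and Y covariates (0.028), without the 10% of lowest total count (0.0090), without 2 libraries of outlying TMM factor (0.00016), without mouse DO283 (0.0038), with (0.041) and without (0.019) Y chromosome counts and with the list mean (0.0093). Folr2 became positive with VST values (0.012), Xist and Y covariates (0.020) and without Y chromosome counts (0.029), and Mgl2 with those covariates (0.0094) and without Y chromosome counts (0.022), as did Clec10a there (0.0035). Lyve1 became negative with those covariates (-0.023), with the pan-macrophage mean (-0.024), and with (-0.037) and without (-0.018) Y chromosome counts. Mrc1 became negative without mouse DO21 (-0.013) and with the pan-macrophage mean (-0.065), as did Pf4 (-0.012 and -0.063) and, with Y chromosome counts, Pf4 again (-0.047).

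For mouse number, 0 members were lower with limma on either scale or without the 10% of lowest total count, and with Xist and Y chromosome covariates 0 were higher, 0 lower and 12.5% of all genes passed in place of 23.7%. With those covariates Mrc1 (-0.020), F13a1 (-0.0075), Mgl2 (0.0060) and Clec10a (-0.0069) changed sign.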
